A study of Mus musculus with 6 samples.

Results

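The 33 genes described here carry glucose through glycolysis to lactate or are switched on when oxygen is short. They were the rows of 6 single-cell RNA-seq count matrices whose gene symbol was on a fixed list of 33 symbols, among 31053 gene rows in all, and all 33 symbols were found. Aldoa has a second row in the annotation that held at most 1 UMI (unique molecular identifier, 1 captured transcript) in the tumour cells of any library, and both rows were summed. The cells came from tumours of Yumm5.2, a mouse melanoma line, grown under the skin of C57BL/6 mice after implanting 350000 cells and taken at 0.5 cm3. Every line carried a hairpin against Cdkn2a, a cell-cycle inhibitor gene, in a pLKO.1 vector and was kept under antibiotic selection for 3 days before implanting. Whether the lines are pools or clones is not given in the sources used here. The knockdown lines also carried hairpin 1 or hairpin 2 against the zinc transporter gene Slc39a9. The control line carried the control hairpin shControl beside the Cdkn2a hairpin. Mice of each line received anti-PD1, an antibody that blocks an inhibitory receptor of T cells, or IgG, at 200 µg 3 times a week by intraperitoneal injection. This gave 6 libraries: hairpin 1 with anti-PD1 and with IgG, hairpin 2 with anti-PD1 and with IgG, and control with anti-PD1 and with IgG. The number of tumours behind each library is not given in the sources used here, so p-values measure only the spread between these libraries. Where single lines are compared, that spread is what remains among the anti-PD1 and IgG libraries once line and treatment are accounted for. Such a p-value does not show how much separately made lines with the same hairpin would vary.

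Glycolysis splits glucose into pyruvate in the cytoplasm, and lactate dehydrogenase turns pyruvate into lactate when it does not enter the mitochondria. Prolyl hydroxylases of the Egln family use oxygen to mark the subunit encoded by Hif1a for destruction. When oxygen falls, that subunit lasts longer and, with its partner, binds short DNA motifs near genes for glucose entry, glycolysis, mitochondrial clearance, collagen modification and blood vessel growth. Solid tumours commonly hold poorly supplied areas in which these genes are high, and many tumour cells also run glycolysis strongly with oxygen present.

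The promoters of 8 members that the results below turn on are shown to let the reader see where the core of the hypoxia response element stands. They are the 250 bases before the RefSeq transcription start in the GRCm38.p6 assembly, on the strand of the gene, 5′ to 3′. Capitals mark the letters ACGTG or GCGTG, or CACGT or CACGC where the same motif lies on the other strand. Slc2a1, Ankrd37, Bnip3 and Pgk1 were lower in tumour cells of both hairpin lines. Pfkfb3 and Adm differed between the hairpin lines, and Slc16a3 and Slc16a1 had opposite patterns across cell classes. The windows are chr4:119108495-119108744 (plus strand) for Slc2a1, chr8:45999851-46000100 (minus strand) for Ankrd37, chr7:138909507-138909756 (minus strand) for Bnip3, chrX:106186850-106187099 (plus strand) for Pgk1, chr2:11553930-11554179 (minus strand) for Pfkfb3, chr7:110627407-110627656 (plus strand) for Adm, chr11:120948817-120949066 (plus strand) for Slc16a3 and chr3:104638414-104638663 (plus strand) for Slc16a1.
Slc2a1: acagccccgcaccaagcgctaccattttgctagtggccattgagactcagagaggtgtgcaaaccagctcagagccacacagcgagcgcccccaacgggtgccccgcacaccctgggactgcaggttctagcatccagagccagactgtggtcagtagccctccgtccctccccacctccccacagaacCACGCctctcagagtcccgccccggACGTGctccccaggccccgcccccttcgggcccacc
Ankrd37: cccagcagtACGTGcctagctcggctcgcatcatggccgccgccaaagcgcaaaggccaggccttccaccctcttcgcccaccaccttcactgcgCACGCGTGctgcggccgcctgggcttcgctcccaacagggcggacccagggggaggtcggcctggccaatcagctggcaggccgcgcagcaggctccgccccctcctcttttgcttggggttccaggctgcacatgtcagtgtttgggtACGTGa
Bnip3: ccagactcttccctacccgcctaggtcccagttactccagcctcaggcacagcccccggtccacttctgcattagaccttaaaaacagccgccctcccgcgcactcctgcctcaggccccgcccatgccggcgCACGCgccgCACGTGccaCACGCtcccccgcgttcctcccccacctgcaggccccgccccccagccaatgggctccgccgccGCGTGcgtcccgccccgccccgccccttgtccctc
Pgk1: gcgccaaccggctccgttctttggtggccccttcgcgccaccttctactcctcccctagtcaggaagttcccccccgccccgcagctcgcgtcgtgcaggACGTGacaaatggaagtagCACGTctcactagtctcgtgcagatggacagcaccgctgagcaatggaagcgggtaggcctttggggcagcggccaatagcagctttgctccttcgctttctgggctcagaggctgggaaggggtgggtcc
Pfkfb3: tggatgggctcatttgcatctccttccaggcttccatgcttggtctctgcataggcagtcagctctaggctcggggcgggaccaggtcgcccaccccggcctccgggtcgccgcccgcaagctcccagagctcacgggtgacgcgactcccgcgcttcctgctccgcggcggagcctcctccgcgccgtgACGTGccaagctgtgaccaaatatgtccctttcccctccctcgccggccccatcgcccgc
Adm: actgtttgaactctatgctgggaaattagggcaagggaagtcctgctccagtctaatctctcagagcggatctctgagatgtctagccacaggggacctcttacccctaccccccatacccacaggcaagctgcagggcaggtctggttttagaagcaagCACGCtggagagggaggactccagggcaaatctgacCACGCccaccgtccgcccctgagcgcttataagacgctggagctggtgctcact
Slc16a3: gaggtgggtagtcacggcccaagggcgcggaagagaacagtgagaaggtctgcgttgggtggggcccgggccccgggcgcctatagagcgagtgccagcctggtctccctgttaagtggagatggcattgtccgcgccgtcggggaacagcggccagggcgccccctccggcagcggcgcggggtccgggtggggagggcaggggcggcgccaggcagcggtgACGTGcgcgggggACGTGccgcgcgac
Slc16a1: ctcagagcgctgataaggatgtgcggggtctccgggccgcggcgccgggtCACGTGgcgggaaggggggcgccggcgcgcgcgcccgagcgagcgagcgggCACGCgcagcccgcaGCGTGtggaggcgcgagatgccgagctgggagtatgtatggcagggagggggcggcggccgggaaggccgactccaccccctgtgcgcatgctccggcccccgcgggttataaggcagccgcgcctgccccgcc

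The motif was found in 25 of 31 members with a RefSeq promoter in the table (80.6%), against 38.6% of the 27025 genes in the table and 54.4% of the 11407 table genes that were also tested in tumour cells. ACGTG alone, on either strand, stood in 18 of the 31 members (58.1%), against 16.6% of all table genes and 21.1% of those tested in tumour cells. Ero1l was matched through its RefSeq name Ero1a, and Ndrg1 and Plod2 had no entry that matched. Where a member had more than 1 listed start, which held for 9 members, the first was read. The member windows were also richer in G and C, with a median of 64.0% against 59.2% in the tested genes and 52.0% in the whole table. ACGTG overlaps the E-box CACGTG, which stood in 4 members, among them Bnip3 and Slc16a1 in the lines above. Of the 14 members called lower in both hairpin lines, 10 held the motif, and Pfkfb3 and Adm, which did not share that pattern, held it too. A match is a description of the letters and does not show binding.

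Each library gave 5037 to 8734 cells after filtering, 43260 in all, with 58859821 to 83204249 UMIs per library. Tumour cells were cells with at least 5 UMIs of Spp1, Grem1 and Cdkn2a together, at most 1 UMI of Tyrobp, none of Ptprc and at least 3000 UMIs in all. There were 2836 (anti-PD1) and 2666 (IgG) of them in hairpin 1, 4635 (anti-PD1) and 4334 (IgG) in hairpin 2, and 4349 (anti-PD1) and 4204 (IgG) in control. The melanocyte markers Tyr, Pmel, Mlana, Dct and Sox10 were at or near 0 in these cells, at most 1.47 CPM (UMIs of the gene per 1e6 UMIs of the gate) in any library. Pax3 and Mitf were present at 55.4 to 85.4 CPM and 14.5 to 20.8 CPM, and the mesenchymal gene Dcn at 482 to 606 CPM. The Slc39a9 level checked the labels: it was 8.51 (anti-PD1) and 8.03 (IgG) CPM in hairpin 1, 11.1 (anti-PD1) and 12.2 (IgG) CPM in hairpin 2, and 20.8 (anti-PD1) and 22.9 (IgG) CPM in control tumour cells. Both hairpin lines lay below the control line, hairpin 1 lower than hairpin 2. Of the 3 genes of the tumour gate, Grem1 was lower, at 1928 to 3550 CPM in the hairpin libraries against 3864 to 4007 CPM in the control libraries. Cdkn2a stood at 212 to 325 CPM in the hairpin libraries against 323 to 351 CPM in the control libraries, where the ranges just overlap, and Spp1 at 4369 to 6106 CPM against 5674 to 6022 CPM, where the hairpin range spans the control range. Among markers of other cells, the neutrophil gate list of 6 genes summed to 37.0 to 72.5 CPM in hairpin tumour cells and 70.0 to 85.4 CPM in control tumour cells, with S100a8 at 6.49 to 28.4 CPM against 49.3 to 64.7 CPM. The neutrophil check list of 4 genes summed to 2.21 to 4.35 CPM in hairpin tumour cells and 6.62 to 6.93 CPM in control tumour cells, and the endothelium check list of 5 genes to 72.1 to 80.8 CPM and 82.3 to 82.4 CPM. The macrophage lists and the fibroblast and pericyte list had overlapping ranges in the hairpin and control libraries. The part of these transcripts in the results below was not tested. Any pair of libraries shared 3873 to 6931 cell barcodes. Over the 15 pairs, the UMI totals of cells with a shared barcode correlated with a Spearman rho of 0.948 to 0.983, and those of a barcode paired with the next shared one with 0.946 to 0.982. In each library the UMI total fell along the alphabetical order of the barcodes, with a rho of -0.99 to -0.98. Cells with a shared barcode were in the same class in 56.8% to 65.4% of cases, against 56.8% to 64.8% for a barcode paired with the next one, and the part of shared barcodes in the results was not tested.

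In tumour cells most of the 33 members were lower in each hairpin line than in the control line. Slc2a1, the main glucose importer, and Ero1l, an oxidase of the endoplasmic reticulum, had the largest falls, and most steps of the pathway down to Ldha were lower as well. edgeR's quasi-likelihood test on UMIs summed per library called 18 members lower and 2 higher in hairpin 1 against control at an adjusted p under 0.05, over 15596 genes tested, of which 21.4% were called lower and 21.3% higher. In hairpin 2 against control it called 19 members lower and 2 higher, where 7.91% of all genes were called lower and 8.12% higher. The median log2 fold change of the members was -0.26 in hairpin 1 and -0.38 in hairpin 2, and 0.00 over all genes in both. These contrasts compare 1 line with 1 line, each with 2 libraries, and both use the same 2 control libraries, so they do not count as independent repeats. In all 4 hairpin libraries 20 members lay below both control libraries and 0 lay above both, against 14.5% of all genes below and 28.8% above. The counts moved when 1 library was left out and fell in both lines without control IgG. Such a fit leaves 1 control library, and the share of all genes called in it is not given here. A change particular to the members therefore cannot be read from these fits. Ankrd37 and Ero1l were called lower in both lines in each fit that left out 1 library. With tumour cells gated on Xist, which uses none of Spp1, Grem1 and Cdkn2a, 19 members were called in hairpin 1 (35.4% of 13175 genes) and 13 in hairpin 2 (6.66%), the 13 all lower, from 4497 cells in place of 23024. The Xist gate took in 32.1% (anti-PD1) and 29.1% (IgG) of hairpin 1 tumour cells, but 13.2% to 17.1% in the hairpin 2 and control libraries. Its cells were deeper, with medians of 14939 to 19711 UMIs against 10301 to 14763 in all tumour cells.

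**Figure D1:**
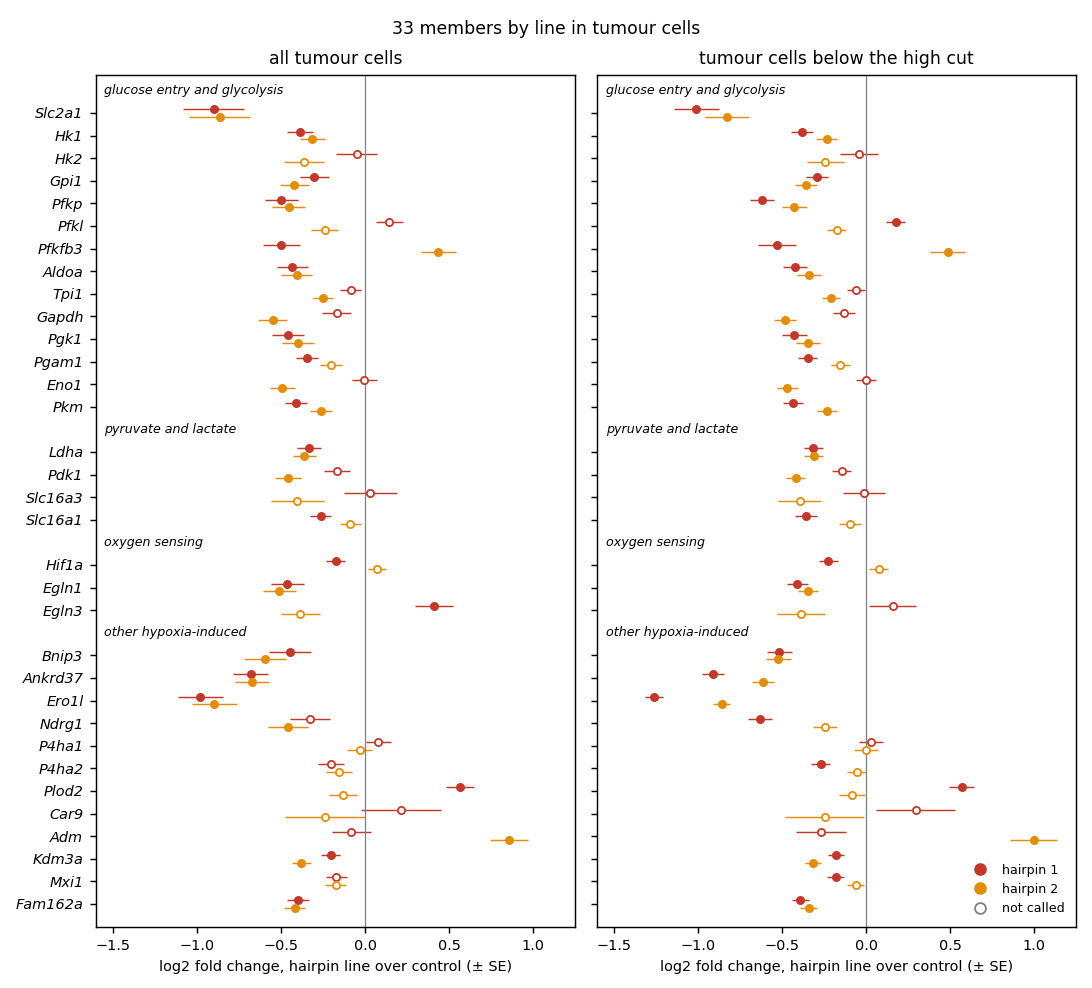
Log2 fold change of each of the 33 members in hairpin 1 and hairpin 2 tumour cells over control tumour cells, with bars of 1 standard error, in all tumour cells (left) and in tumour cells below the high cut (right). Filled points were called at an adjusted p under 0.05 by edgeR, and most lie left of 0 in both panels, while Pfkfb3 lies on opposite sides of 0 in the 2 lines and Adm lies at 0.86 in hairpin 2.

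Glucose entry and the first steps of glycolysis were lower in both hairpin lines. Slc2a1 stood at 92.8 (anti-PD1) and 109.8 (IgG) CPM in hairpin 1, 121 (anti-PD1) and 82.7 (IgG) CPM in hairpin 2, and 162 (anti-PD1) and 194 (IgG) CPM in control tumour cells. Its control levels exceeded those of all 4 hairpin libraries, and the log2 fold changes were -0.90 ± 0.18 in hairpin 1 and -0.87 ± 0.18 in hairpin 2 (SE; edgeR adjusted p = 0.00665 and 0.0221). Hexokinase traps glucose in the cell as glucose phosphate. Hk1, the broadly expressed hexokinase, stood at 88.9 (anti-PD1) and 96.8 (IgG) CPM in hairpin 1, 97.6 (anti-PD1) and 93.3 (IgG) CPM in hairpin 2, and 106 (anti-PD1) and 122 (IgG) CPM in control tumour cells. The groups did not overlap, and Hk1 fell in hairpin 1 (-0.39 ± 0.08, adjusted p = 0.00568 by edgeR) and in hairpin 2 (-0.31 ± 0.07, adjusted p = 0.0326 by edgeR). Hk2, the hexokinase known as hypoxia-inducible, stood at 46.7 (anti-PD1) and 33.2 (IgG) CPM in hairpin 1, 33.5 (anti-PD1) and 29.1 (IgG) CPM in hairpin 2, and 37.0 (anti-PD1) and 39.7 (IgG) CPM in control tumour cells. Here the hairpin and control ranges overlapped, because the hairpin 1 anti-PD1 library was the highest of the 6, and neither contrast was called (-0.05 ± 0.12 in hairpin 1 and -0.36 ± 0.12 in hairpin 2). Gpi1, which converts glucose phosphate to fructose phosphate, stood at 335 (anti-PD1) and 362 (IgG) CPM in hairpin 1, 339 (anti-PD1) and 289.6 (IgG) CPM in hairpin 2, and 399 (anti-PD1) and 409 (IgG) CPM in control tumour cells. All hairpin values were below both control values, with edgeR log2 fold changes of -0.30 ± 0.09 (adjusted p = 0.0277) in hairpin 1 and -0.42 ± 0.09 (adjusted p = 0.0215) in hairpin 2. The call was lost without control anti-PD1 for Gpi1 in hairpin 1, without control IgG for Hk1 and Gpi1 in hairpin 1 and Slc2a1, Hk1 and Gpi1 in hairpin 2, without hairpin 1 anti-PD1 for Gpi1 in hairpin 1 and without hairpin 2 IgG for Hk1 and Gpi1 in hairpin 2. DESeq2 did not call Slc2a1 in hairpin 2, and Xist-gated cells did not give a call for Gpi1 in hairpin 1 or Hk1 in hairpin 2.

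Of the phosphofructokinase subunits, which commit sugar to glycolysis, Pfkp and Pfkl behaved differently. Pfkp stood at 76.8 (anti-PD1) and 79.3 (IgG) CPM in hairpin 1, 89.2 (anti-PD1) and 69.2 (IgG) CPM in hairpin 2, and 104 (anti-PD1) and 103 (IgG) CPM in control tumour cells. It was lower in every hairpin library and fell in both lines (-0.50 ± 0.10 in hairpin 1, -0.45 ± 0.10 in hairpin 2; edgeR adjusted p = 0.00647 and 0.0248). Pfkl stood at 192 (anti-PD1) and 191 (IgG) CPM in hairpin 1, 154 (anti-PD1) and 133 (IgG) CPM in hairpin 2, and 158 (anti-PD1) and 168 (IgG) CPM in control tumour cells. The hairpin 1 libraries were above both control libraries and the hairpin 2 libraries below both, and neither line was called against control (0.14 ± 0.08 and -0.24 ± 0.08), but hairpin 2 was lower than hairpin 1 (-0.39 ± 0.08; edgeR adjusted p = 0.0104; the call was lost without hairpin 2 IgG). Aldoa, the aldolase that splits the sugar, stood at 541 (anti-PD1) and 621 (IgG) CPM in hairpin 1, 615 (anti-PD1) and 543 (IgG) CPM in hairpin 2, and 725 (anti-PD1) and 749 (IgG) CPM in control tumour cells. The control libraries were the highest, with log2 fold changes of -0.43 ± 0.09 in hairpin 1 and -0.41 ± 0.09 in hairpin 2 (edgeR adjusted p = 0.00813 and 0.0272). Pgk1, the first step of glycolysis that makes ATP, stood at 1380.2 (anti-PD1) and 1457 (IgG) CPM in hairpin 1, 1591 (anti-PD1) and 1313 (IgG) CPM in hairpin 2, and 1812 (anti-PD1) and 1854 (IgG) CPM in control tumour cells. Its groups did not overlap, and it fell in both lines (-0.46 ± 0.09 in hairpin 1 and -0.40 ± 0.09 in hairpin 2 on the log2 scale; edgeR adjusted p = 0.0073 and 0.0323). The call was lost without control anti-PD1 for Aldoa and Pgk1 in hairpin 2, without control IgG for Pfkp, Aldoa and Pgk1 in hairpin 2, without hairpin 1 anti-PD1 for Aldoa and Pgk1 in hairpin 1 and without hairpin 2 IgG for Pfkp, Aldoa and Pgk1 in hairpin 2. In Xist-gated cells Pfkp was not called in hairpin 2.

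**Figure D2:**
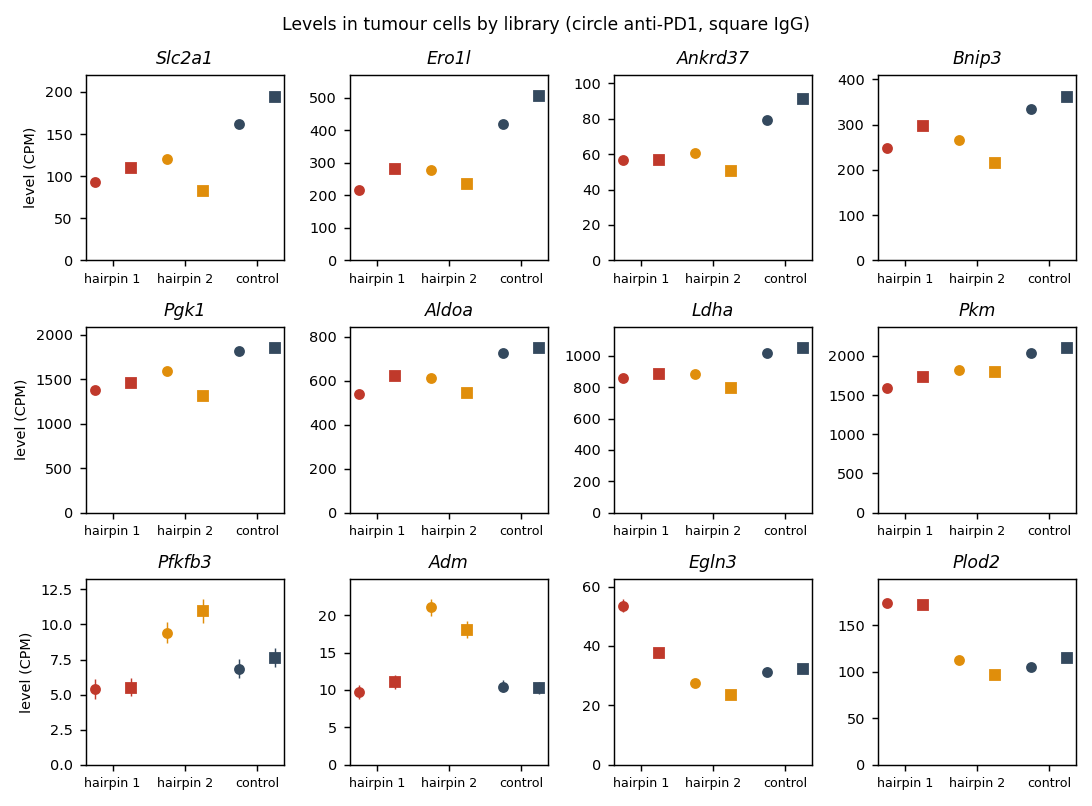
Level of 12 members in the tumour cells of each library, in CPM, by line, with circles for anti-PD1 and squares for IgG and bars for the exact 95% Poisson interval of the UMI count, which covers counting error only. In the upper 8 panels all 4 hairpin libraries lie below both control libraries, as for Slc2a1 at 82.7 to 121 CPM against 162 to 194 CPM, while in the lowest row the hairpin lines part from each other.

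The later enzymes of the pathway were also mostly lower. Pkm, pyruvate kinase, stood at 1586 (anti-PD1) and 1733 (IgG) CPM in hairpin 1, 1817 (anti-PD1) and 1791 (IgG) CPM in hairpin 2, and 2041 (anti-PD1) and 2108 (IgG) CPM in control tumour cells. All hairpin values were below the control values (-0.41 ± 0.07 in hairpin 1 and -0.26 ± 0.07 in hairpin 2; edgeR adjusted p = 0.00258 and 0.0394). Ldha, which turns pyruvate into lactate, stood at 862 (anti-PD1) and 886 (IgG) CPM in hairpin 1, 883 (anti-PD1) and 797 (IgG) CPM in hairpin 2, and 1019.9 (anti-PD1) and 1051 (IgG) CPM in control tumour cells. The groups did not overlap, and the log2 fold changes were -0.33 ± 0.07 in hairpin 1 and -0.36 ± 0.07 in hairpin 2 (edgeR adjusted p = 0.00804 and 0.0184). Other enzymes were called in 1 line: Pgam1 fell in hairpin 1 (-0.34 ± 0.07 on the log2 scale, adjusted p = 0.00591 with edgeR), and its hairpin 2 value was -0.20 ± 0.07 (not called). Tpi1, Gapdh and Eno1 fell in hairpin 2, with log2 fold changes of -0.25 ± 0.06, -0.55 ± 0.09 and -0.49 ± 0.07, against hairpin 1 values of -0.08 ± 0.06, -0.17 ± 0.09 and 0.00 ± 0.07 that were not called. The difference between the lines itself was called for Gapdh and Eno1 (-0.38 ± 0.09 and -0.49 ± 0.07 for hairpin 2 minus hairpin 1; edgeR adjusted p = 0.015 and 0.00326), and for Gapdh it was lost without hairpin 1 IgG or hairpin 2 IgG. Pdk1, the kinase that keeps pyruvate out of the mitochondria, fell in hairpin 2 (-0.46 ± 0.08, edgeR adjusted p = 0.0118) and had a value of -0.16 ± 0.08 in hairpin 1. The call was lost without control anti-PD1 for Tpi1 and Pkm in hairpin 2, without control IgG for Ldha in hairpin 1 and Tpi1, Pkm, Ldha and Pdk1 in hairpin 2, without hairpin 1 anti-PD1 for Ldha in hairpin 1, without hairpin 2 anti-PD1 for Pkm in hairpin 2 and without hairpin 2 IgG for Tpi1, Pkm and Ldha in hairpin 2. In Xist-gated cells Tpi1, Pkm and Pdk1 were not called in hairpin 2. Several of these enzymes, Gapdh above all, have near-identical processed copies in the mouse genome, and how reads shared with such copies were counted is not given in the sources used here.

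The lactate carriers differed less from control. Slc16a1, which moves lactate in either direction, stood at 111 (anti-PD1) and 99.7 (IgG) CPM in hairpin 1, 116 (anti-PD1) and 117 (IgG) CPM in hairpin 2, and 118 (anti-PD1) and 119 (IgG) CPM in control tumour cells. The control libraries were the highest by a small margin, and only hairpin 1 was called (-0.26 ± 0.06, edgeR adjusted p = 0.0108; lost without control IgG or hairpin 1 IgG), with -0.09 ± 0.06 in hairpin 2. Slc16a3, known as the exporter of strongly glycolytic cells, stood at 29.8 (anti-PD1) and 26.1 (IgG) CPM in hairpin 1, 26.4 (anti-PD1) and 15.0 (IgG) CPM in hairpin 2, and 26.7 (anti-PD1) and 24.6 (IgG) CPM in control tumour cells. The hairpin 2 IgG library was the lowest and the other 5 were close together, and neither line was called (0.03 ± 0.16 in hairpin 1 and -0.40 ± 0.16 in hairpin 2).

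Among the oxygen sensors, Egln1 fell and Egln3 parted between the lines. Egln1, the main prolyl hydroxylase acting on the Hif1a product, stood at 151 (anti-PD1) and 164 (IgG) CPM in hairpin 1, 163 (anti-PD1) and 135 (IgG) CPM in hairpin 2, and 199.9 (anti-PD1) and 207 (IgG) CPM in control tumour cells. Its groups did not overlap (-0.46 ± 0.10 in hairpin 1 and -0.51 ± 0.10 in hairpin 2; edgeR adjusted p = 0.00757 and 0.0163). The call was lost without control IgG for Egln1 in hairpin 2 and without hairpin 1 anti-PD1 for Egln1 in hairpin 1. Egln3, a relative that is strongly induced by low oxygen, stood at 53.6 (anti-PD1) and 37.7 (IgG) CPM in hairpin 1, 27.7 (anti-PD1) and 23.4 (IgG) CPM in hairpin 2, and 31.4 (anti-PD1) and 32.2 (IgG) CPM in control tumour cells. It was highest in hairpin 1 and lowest in hairpin 2: hairpin 1 rose by 0.41 ± 0.11 (edgeR adjusted p = 0.024; lost without control anti-PD1 or hairpin 1 anti-PD1), hairpin 2 was at -0.39 ± 0.12 (not called), and hairpin 2 was lower than hairpin 1 (-0.80 ± 0.12; edgeR adjusted p = 0.0028). Hif1a itself had 121 (anti-PD1) and 127 (IgG) CPM in hairpin 1, 134 (anti-PD1) and 155 (IgG) CPM in hairpin 2, and 126 (anti-PD1) and 137 (IgG) CPM in control. The ranges overlapped, and edgeR gave -0.18 ± 0.06 in hairpin 1 (adjusted p = 0.0387; lost in 4 of the 6 fits that left out 1 library) and 0.07 ± 0.06 in hairpin 2 (not called). Its protein, which is what oxygen controls, was not measured.

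The other hypoxia-induced members included the largest falls. Ero1l, which forms disulfide bonds in the endoplasmic reticulum, stood at 218 (anti-PD1) and 282 (IgG) CPM in hairpin 1, 277 (anti-PD1) and 236 (IgG) CPM in hairpin 2, and 420.2 (anti-PD1) and 505 (IgG) CPM in control tumour cells. All hairpin libraries were well below both control libraries, with log2 fold changes of -0.98 ± 0.13 in hairpin 1 and -0.90 ± 0.13 in hairpin 2 (edgeR adjusted p = 0.00137 and 0.00837). Ankrd37, an ankyrin-repeat gene used in hypoxia signatures, stood at 56.6 (anti-PD1) and 56.8 (IgG) CPM in hairpin 1, 60.7 (anti-PD1) and 50.7 (IgG) CPM in hairpin 2, and 79.1 (anti-PD1) and 91.4 (IgG) CPM in control tumour cells. The groups did not overlap, and the 2 lines had nearly the same difference from control (-0.68 ± 0.10 in hairpin 1 and -0.67 ± 0.10 in hairpin 2; edgeR adjusted p = 0.00207 and 0.00901). Bnip3, a receptor that sends mitochondria for degradation, stood at 248 (anti-PD1) and 297 (IgG) CPM in hairpin 1, 266 (anti-PD1) and 214 (IgG) CPM in hairpin 2, and 335 (anti-PD1) and 362 (IgG) CPM in control tumour cells. It was lower in all hairpin libraries (-0.44 ± 0.13 in hairpin 1 and -0.59 ± 0.13 in hairpin 2; edgeR adjusted p = 0.0251 and 0.0224). The call was lost without control IgG for Bnip3 in both lines and without hairpin 1 anti-PD1 for Bnip3 in hairpin 1. DESeq2 did not call Bnip3 in hairpin 1.

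Fam162a, a mitochondrial protein linked to cell death in low oxygen, stood at 281 (anti-PD1) and 269.7 (IgG) CPM in hairpin 1, 285 (anti-PD1) and 248 (IgG) CPM in hairpin 2, and 346 (anti-PD1) and 336 (IgG) CPM in control tumour cells. The hairpin libraries were all lower, with a small standard error (-0.40 ± 0.06 in hairpin 1 and -0.42 ± 0.06 in hairpin 2; edgeR adjusted p = 0.00239 and 0.00855). Kdm3a, a histone demethylase that needs oxygen, stood at 73.7 (anti-PD1) and 77.7 (IgG) CPM in hairpin 1, 66.9 (anti-PD1) and 64.5 (IgG) CPM in hairpin 2, and 81.1 (anti-PD1) and 83.0 (IgG) CPM in control tumour cells. The groups did not overlap, but the hairpin 1 difference was small (-0.21 ± 0.06 in hairpin 1 and -0.38 ± 0.06 in hairpin 2; edgeR adjusted p = 0.0248 and 0.00885). Ndrg1, a stress-induced gene, fell in hairpin 2 (-0.46 ± 0.12, edgeR adjusted p = 0.0405), and its hairpin 1 value was -0.33 ± 0.12 (edgeR adjusted p = 0.059). The call was lost without control anti-PD1 for Kdm3a in hairpin 1 and Ndrg1 in hairpin 2, without control IgG for Kdm3a in hairpin 1 and Fam162a, Kdm3a and Ndrg1 in hairpin 2, without hairpin 1 anti-PD1 for Kdm3a in hairpin 1 and without hairpin 2 IgG for Ndrg1 in hairpin 2. In Xist-gated cells Kdm3a was called in neither line, at -0.04 in hairpin 1 and -0.27 in hairpin 2, and DESeq2 did not call Ndrg1 in hairpin 2. The collagen prolyl hydroxylases P4ha1 and P4ha2, the carbonic anhydrase Car9 and the Myc antagonist Mxi1 were called in neither line, with log2 fold changes between -0.24 and 0.21. Car9 was the lowest of them, at 3.17 to 6.15 CPM, and its standard error of 0.24 leaves moderate differences undetectable.

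A few members parted the 2 lines that share a target. Pfkfb3, which makes the main activator of phosphofructokinase, stood at 5.38 (anti-PD1) and 5.50 (IgG) CPM in hairpin 1, 9.43 (anti-PD1) and 11 (IgG) CPM in hairpin 2, and 6.82 (anti-PD1) and 7.63 (IgG) CPM in control tumour cells. Hairpin 1 lay below both control libraries and hairpin 2 above both. It fell in hairpin 1 (-0.50 ± 0.11, edgeR adjusted p = 0.00915) and rose in hairpin 2 (0.44 ± 0.10, edgeR adjusted p = 0.0314), and hairpin 2 minus hairpin 1 was 0.93 ± 0.11 (edgeR adjusted p = 0.00114). The hairpin 1 call was lost without control anti-PD1, control IgG or hairpin 1 IgG, and the hairpin 2 call without any 1 of its own or the control libraries, while the call between the hairpin lines stood in all 6 such fits. Adm, a peptide that widens blood vessels, stood at 9.71 (anti-PD1) and 11 (IgG) CPM in hairpin 1, 21.0 (anti-PD1) and 18.1 (IgG) CPM in hairpin 2, and 10.5 (anti-PD1) and 10.2 (IgG) CPM in control tumour cells. Both hairpin 2 libraries were above the other 4 libraries, and the gene was called against control (0.86 ± 0.11, edgeR adjusted p = 0.00571) and against hairpin 1 (0.94 ± 0.11, edgeR adjusted p = 0.00135), with -0.08 ± 0.12 in hairpin 1. In Xist-gated cells Adm in hairpin 2 was at 0.25 and Pfkfb3 at 0.49 against control, and neither was called, nor was Pfkfb3 in hairpin 1, at -0.47. DESeq2 did not call Pfkfb3 in hairpin 2. Plod2, a collagen lysyl hydroxylase, stood at 174 (anti-PD1) and 172 (IgG) CPM in hairpin 1, 112 (anti-PD1) and 96.5 (IgG) CPM in hairpin 2, and 105 (anti-PD1) and 114 (IgG) CPM in control tumour cells. Only hairpin 1 stood apart from the other 4 libraries: it rose against control (0.57 ± 0.08, edgeR adjusted p = 0.00178), hairpin 2 was at -0.13 ± 0.08, and hairpin 2 was lower than hairpin 1 (-0.70 ± 0.08; edgeR adjusted p = 0.00128). In hairpin 2 minus hairpin 1, 3 members were called higher and 6 lower, where 15.9% of all genes were higher and 14.6% lower, and the median member was at -0.03.

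Pooled over the hairpins, with the genotype and the treatment as terms, the same differences did not pass. The test called 0 members in knockdown against control and 0 of 15596 genes (0.0%), while 17 members, all lower, and 3124 genes were under 0.05 before adjustment. DESeq2 called 13 members, all lower, and 8.64% of the 15596 genes in either direction. The median member was at -0.29 and the median gene at 0.01. For anti-PD1 against IgG, edgeR called 0 members and 0.0% of genes, with an unadjusted p under 0.05 for 1 member and 119 genes. DESeq2 called 0 members, and the median member was at 0.02. Within hairpin 1, Slc2a1 was lower with anti-PD1 than with IgG, in hairpin 2 it was higher, and in control lower, and Ero1l, Bnip3 and Pgk1 had the same order. The interaction of knockdown with anti-PD1 called 0 members and 0.0% of 16226 genes by edgeR and 0 by DESeq2, with 29 of 33 members positive, a median member of 0.12 and a median gene of 0.01.

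To describe how the lower sums were spread over the tumour cells, the cells were split by a hypoxia score. Each tumour cell was thinned at random to 3000 UMIs, and a cell was called high when the 16 hypoxia-induced members (Slc2a1, Pdk1, Bnip3, Ankrd37, Ero1l, Ndrg1, P4ha1, P4ha2, Egln1, Egln3, Car9, Adm, Kdm3a, Mxi1, Plod2 and Fam162a) together had 19 or more of them. The cut is a range of a continuous score, not a cell type, and 0.923% to 2.58% of cells lay within 1 UMI of it. High cells made up 9.03% (anti-PD1) and 10.6% (IgG) of hairpin 1, 8.28% (anti-PD1) and 6.25% (IgG) of hairpin 2, and 11.3% (anti-PD1) and 13.8% (IgG) of control tumour cells. The exact 95% binomial intervals of these shares, which cover counting error only, ran from 5.55% to 11.8% over the hairpin libraries and from 10.4% to 14.9% over the control libraries. All 4 hairpin shares were below both control shares, the nearest pair being hairpin 1 IgG and control anti-PD1, whose intervals overlap. With the 5% cut the groups overlapped, with hairpin 1 IgG at 5.66% above control anti-PD1 at 5.20%, and with the 20% cut they did not, at 12.6% to 18.5% in the hairpin libraries and 23.9% to 25.5% in the control libraries. The mean share was 8.54% ± 1.80 (SD, n = 4) in the hairpin libraries and 12.6% ± 1.79 (SD, n = 2) in the control libraries, a ratio of 0.680 (0.706 with the 5% cut and 0.668 with the 20% cut), given as a description with no test. Median UMIs per cell were 8997 to 13684 in high cells and 10395 to 14849 in the other tumour cells. The median cell had 0 UMIs of the macrophage, neutrophil, endothelium and lymphocyte lists among high cells and among the others in every library. The tumour gate left out cells with Ptprc or meeting another gate, so these low values were partly set in advance. For the fibroblast and pericyte list, which no gate used, the median cell had 5 to 7 UMIs among high cells and among the others.

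**Figure D3:**
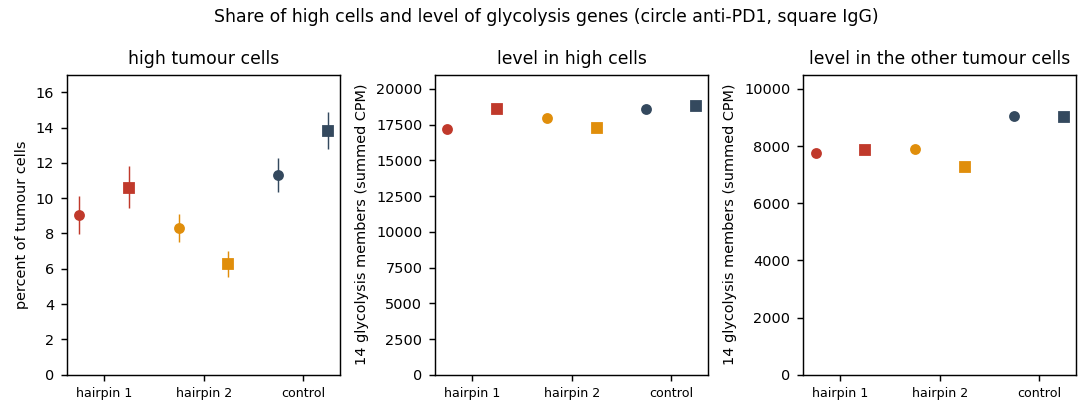
Left, share of high tumour cells in each library in percent, with exact 95% binomial intervals. Middle and right, summed CPM of the 14 glycolysis members in high cells and in the other tumour cells. Circles are anti-PD1 and squares IgG. The hairpin libraries lie at 6.25% to 10.6% against 11.3% and 13.8% in control, and in the other tumour cells at 7274 to 7886 CPM against 9025 and 9042 CPM.

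Outside the high cells the glycolysis genes were still lower in the hairpin lines. The 14 glycolysis members (Hk1, Hk2, Gpi1, Pfkp, Pfkl, Pfkfb3, Aldoa, Tpi1, Gapdh, Pgk1, Pgam1, Eno1, Pkm and Ldha), none of them in the score, summed in the other tumour cells to 7765 (anti-PD1) and 7851 (IgG) CPM in hairpin 1, 7886 (anti-PD1) and 7274 (IgG) CPM in hairpin 2, and 9042 (anti-PD1) and 9025 (IgG) CPM in control. The control sums stood above all 4 hairpin sums. In high cells the sums were 17200 (anti-PD1) and 18576 (IgG) CPM in hairpin 1, 17970 (anti-PD1) and 17259 (IgG) CPM in hairpin 2, and 18590 (anti-PD1) and 18775 (IgG) CPM in control, so that the lines were close together. The median tumour cell had 20 to 21 glycolysis UMIs of 3000 in the hairpin libraries and 25 to 26 in the control libraries. When each hairpin library was set against the control library of the same treatment, 63.6% to 81.0% of the difference in the sum stood in the level of the other cells, 14% to 30.7% in the share of high cells and 1.70% to 8.21% in the level of the high cells. The mean part in the other cells was 74.6%, but 54.5% with a cut that made a mean of at most 20% of cells high, and 59.5% in Xist-gated cells, both computed after the first value was seen. How much falls to each part therefore depends on where the cut is put.

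In the other tumour cells, edgeR called 21 members lower and 2 higher in hairpin 1 (22.3% and 22.1% of 15403 genes) and 18 lower and 2 higher in hairpin 2 (7.47% and 7.82%). Because the cut removed cells by the 16 hypoxia-induced members, the 17 members outside the score are the clearer readout: of these, hairpin 1 had 11 lower and 1 higher and hairpin 2 had 10 lower and 1 higher. In all tumour cells the same 17 gave 11 lower and none higher for hairpin 1, and 10 lower and 1 higher for hairpin 2. Pgk1 was at -0.43 ± 0.07 in hairpin 1 and -0.35 ± 0.07 in hairpin 2 there (edgeR adjusted p = 0.00301 and 0.0222), and Pfkp at -0.62 ± 0.07 and -0.43 ± 0.07 (edgeR adjusted p = 0.000623 and 0.0112). Pfkl, not called in all tumour cells, rose in the other cells of hairpin 1 (0.17 ± 0.06, edgeR adjusted p = 0.0405; lost without any 1 of the 4 libraries of hairpin 1 and control). Egln3, called in all tumour cells of hairpin 1, was not called there (0.16 ± 0.14). Without control IgG or without hairpin 2 IgG the hairpin 2 count of 20 fell, with no share of all genes given for those fits. In Xist-gated cells it was 4, where 5.27% of genes were called. Pgk1 lost its hairpin 2 call in all 3 of these settings, and Pfkp without control IgG and in Xist-gated cells.

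High cells carried more of most glycolysis transcripts than the other tumour cells in all 6 libraries. The ratio of the levels was largest for Pfkp, at 4.09 to 5.13 over the hairpin libraries and 3.12 to 3.24 over the control libraries, for Hk2, at 3.84 to 5.20 against 3.51 to 4.08, and for Slc16a3, at 3.88 to 4.64 against 2.81 to 3.22. All hairpin ratios lay above both control ratios for Pfkp, Slc16a3, Gpi1, Aldoa, Tpi1, Pgam1, Pkm, Ldha, Hif1a and Slc16a1. For Hk2 and the remaining members outside the score the hairpin and control ratios overlapped. The share of all genes with such a separation was not computed. Gpi1, Pfkl, Pgk1, Gapdh, Aldoa, Ldha, Pgam1, Hk1 and Tpi1 had median ratios over the 6 libraries between 1.99 and 2.82. Pkm, Eno1, Hif1a and Pfkfb3 differed less, with medians between 1.36 and 1.61, and Pfkfb3 reached below 1 in hairpin 2 IgG. Slc16a1 stood at a median of 1.03, with 1.48 (anti-PD1) and 1.80 (IgG) in hairpin 1 and values near 1 in hairpin 2 and control. These are descriptions of cells picked by related genes and carry no test.

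**Figure D4:**
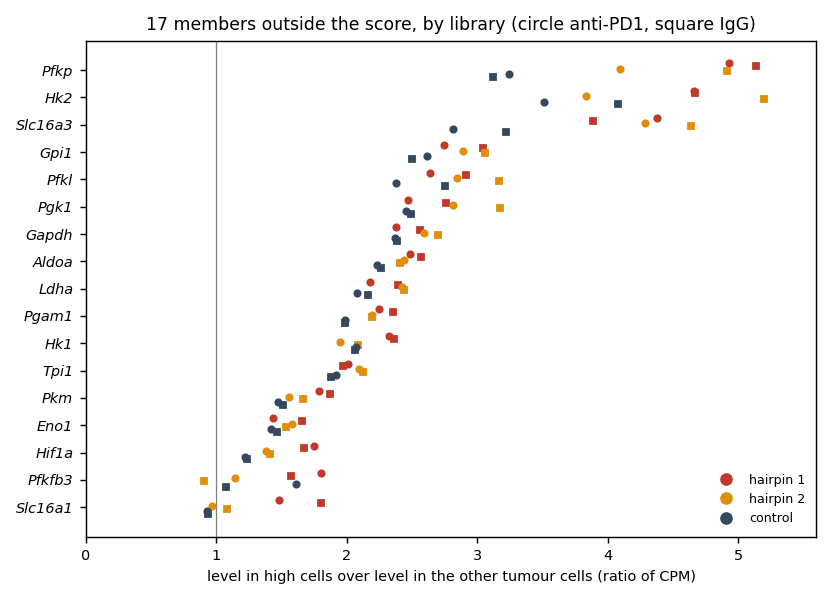
Ratio of the level in high tumour cells to the level in the other tumour cells, from CPM, for the 17 members outside the score in each of the 6 libraries, with circles for anti-PD1 and squares for IgG. Pfkp, Hk2 and Slc16a3 have the highest medians (4.51, 4.37 and 4.09) and Slc16a1 the lowest (1.03).

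In macrophages of the same tumours, taken as cells with at least 3 UMIs of C1qa, C1qb and C1qc, few members were called. There were 1326 to 1918 of them per library, and their check markers (Csf1r, Cd68, Adgre1, Mrc1, Fcgr1, Cd14 and Lyz2) summed to 10587 to 13430 CPM. In knockdown against control edgeR called 0 members, where 0.127% of 12632 genes were called, with an unadjusted p under 0.05 for 4 members and 1440 genes, and DESeq2 called 0 members. In hairpin 1 only Fam162a was called, higher by 0.32 ± 0.08 (edgeR adjusted p = 0.0369), where 4.25% of genes were called higher and 4.82% lower. This call was lost with DESeq2 and in 4 of the 6 fits that left out 1 library. The number of members called moved between those fits, for which no share of all genes is given. Slc2a1 stood in macrophages at 98.8 (anti-PD1) and 78.4 (IgG) CPM in hairpin 1, 95 (anti-PD1) and 53.5 (IgG) CPM in hairpin 2, and 78.8 (anti-PD1) and 82.8 (IgG) CPM in control macrophages. The groups overlapped, and its log2 fold changes, not called, were 0.10 ± 0.16 in hairpin 1 and -0.18 ± 0.17 in hairpin 2.

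In hairpin 2 macrophages 4 members were called lower and 0 higher, where 2.31% of genes were lower and 1.5% higher, and the median member was at -0.20. Slc16a3 stood at 180.0 (anti-PD1) and 126 (IgG) CPM in hairpin 1, 98.2 (anti-PD1) and 80.0 (IgG) CPM in hairpin 2, and 145 (anti-PD1) and 132 (IgG) CPM in control macrophages. Hairpin 2 had the lowest values, at -0.68 ± 0.10 against control (edgeR adjusted p = 0.0055). Eno1 stood at 421 (anti-PD1) and 363 (IgG) CPM in hairpin 1, 262 (anti-PD1) and 202 (IgG) CPM in hairpin 2, and 369 (anti-PD1) and 335 (IgG) CPM in control macrophages. Hairpin 2 was again the lowest (-0.65 ± 0.08, edgeR adjusted p = 0.00268), while hairpin 1 lay above and within the control range. Gapdh stood at 1287 (anti-PD1) and 1109 (IgG) CPM in hairpin 1, 919 (anti-PD1) and 696 (IgG) CPM in hairpin 2, and 1117 (anti-PD1) and 1059 (IgG) CPM in control macrophages, with -0.48 ± 0.09 in hairpin 2 (edgeR adjusted p = 0.0161), and Aldoa at 782 (anti-PD1) and 697 (IgG) CPM in hairpin 1, 585 (anti-PD1) and 464 (IgG) CPM in hairpin 2, and 675 (anti-PD1) and 632 (IgG) CPM in control macrophages, with -0.37 ± 0.08 (edgeR adjusted p = 0.0359). For both genes the hairpin 2 libraries were below both control libraries. Genes of the other gates also differed in the macrophage sums. The 6 genes of the neutrophil gate summed to 60.1 to 153 CPM in hairpin macrophages and 251 to 285 CPM in control macrophages. Of these, Mmp9 stood at 23.6 to 126 CPM and 181 to 211 CPM, and S100a8 at 1.65 to 8.88 CPM and 13.6 to 16.8 CPM. Spp1, Grem1 and Cdkn2a summed to 1160.2 to 2114 CPM and 2078 to 3007 CPM. Whether macrophages made these transcripts or took them from other cells was not tested, nor was their part in these calls. Aldoa was not called without control IgG, and Aldoa and Slc16a3 were not called without hairpin 2 anti-PD1. The count of 4 moved in both directions when single libraries were left out, falling without hairpin 2 IgG and rising without control anti-PD1. No share of all genes is given for those fits.

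With anti-PD1 against IgG in macrophages, edgeR called 0 members and 0.0% of genes, with an unadjusted p under 0.05 for 4 members, all higher, and 377 genes, and DESeq2 called 0. The median member was at 0.19 and 30 of 33 were positive, against a median of 0.00 over all genes. High macrophages were those with 7 or more UMIs of the 16 hypoxia-induced members after thinning to 2000, which left out 246 to 620 shallower cells per hairpin library and 445 to 562 per control library. They made up 9.50% (anti-PD1) and 8.43% (IgG) of hairpin 1, 5.76% (anti-PD1) and 4.46% (IgG) of hairpin 2, and 7.89% (anti-PD1) and 7.24% (IgG) of control macrophages. Hairpin 1 lay above control and hairpin 2 below it, so the hairpin to control ratio of mean shares was 0.930. It was 1.01 with the 5% cut, 0.819 with the 20% cut, and with 1 library left out it was lowest at 0.821, when hairpin 1 anti-PD1 was dropped, and highest at 1.04, when hairpin 2 IgG was dropped. High macrophages also held more of the tumour gate genes than the others, with Spp1, Grem1 and Cdkn2a together at 2869 to 9391 CPM against 871 to 2572 CPM. Whether this was tumour RNA or was made by the macrophages was not tested, nor was its part in the score.

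The members differed in which cell class held their highest level. Levels of a gene were compared between tumour cells, macrophages, neutrophils and endothelial cells of the same 6 libraries, which the gates chose without using any member. Endothelial cells needed at least 2 of 7 endothelial genes and numbered 24 to 88 per library, and neutrophils needed at least 10 UMIs of S100a8 and S100a9 with 1 or more of Csf3r, Cxcr2, Retnlg or Mmp9 and numbered 20 to 222. The neutrophil gate held tumour RNA, with Grem1 at 166 to 2641 CPM, so levels below are from the 19 to 205 neutrophils per library with under 5 UMIs of Spp1, Grem1 and Cdkn2a, a gate added after this was seen. Against macrophages, edgeR with a library block called 23 members higher and 6 lower in tumour cells (41.0% and 36.1% of 13069 genes). Against endothelium it called 21 higher and 5 lower (30.9% and 23.0%). Against neutrophils it called 9 higher and 10 lower (28.1% and 18.7%), and with the stricter neutrophil gate 18 higher and 10 lower, where 68.5% of 13011 genes were called in either direction. The median member was at 0.64 against macrophages, 0.84 against endothelium and 0.23 against neutrophils, where the median gene was at 0.08, 0.20 and 0.46. Fold changes against neutrophils below are from the wider gate, and the 19 calls made with it were also made with the stricter one.

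The lactate carriers had opposite patterns across the classes. Slc16a3 ranged over the 6 libraries from 15.0 to 29.8 CPM in tumour cells, with a median of 26.3 CPM, from 80.0 to 180.0 CPM (median 129) in macrophages, from 757 to 1850 CPM (median 1117) in neutrophils, and from 25.7 to 151 CPM (median 43.2) in endothelium. Tumour cells were the lowest class, with log2 fold changes of -2.36 ± 0.19 against macrophages, -4.85 ± 0.24 against neutrophils and -1.11 ± 0.31 against endothelium (edgeR adjusted p = 2.72e-12, 4.11e-17 and 0.00342; the last was lost without control IgG). Slc16a1 ranged from 99.7 to 119 CPM in tumour cells, from 21.1 to 31.5 CPM in macrophages, from 0 to 20.0 CPM in neutrophils and from 0 to 16.4 CPM in endothelium. Tumour cells were the highest class, without overlap, by log2 fold changes of 2.01 ± 0.13 against macrophages, 1.57 ± 0.26 against neutrophils of the wider gate and 4.09 ± 0.31 against endothelium (edgeR adjusted p = 6.75e-15, 1.23e-05 and 1.57e-12). Against neutrophils of the stricter gate, the gate of the levels above, it was 4.12 ± 0.41 (edgeR adjusted p = 7.48e-10). Macrophages held 12.4% to 19.6% of the tumour level of Grem1, a gene of the tumour gate, and 21.2% to 27.2% of that of Slc16a1. In the same measure Plod2 stood at 5.89% to 15.8%, P4ha2 at 13.1% to 25.3% and Adm at 7.28% to 43.8%, ranges that overlap that of Grem1. The part of tumour RNA in the macrophage levels of these 4 members was not tested.

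**Figure D5:**
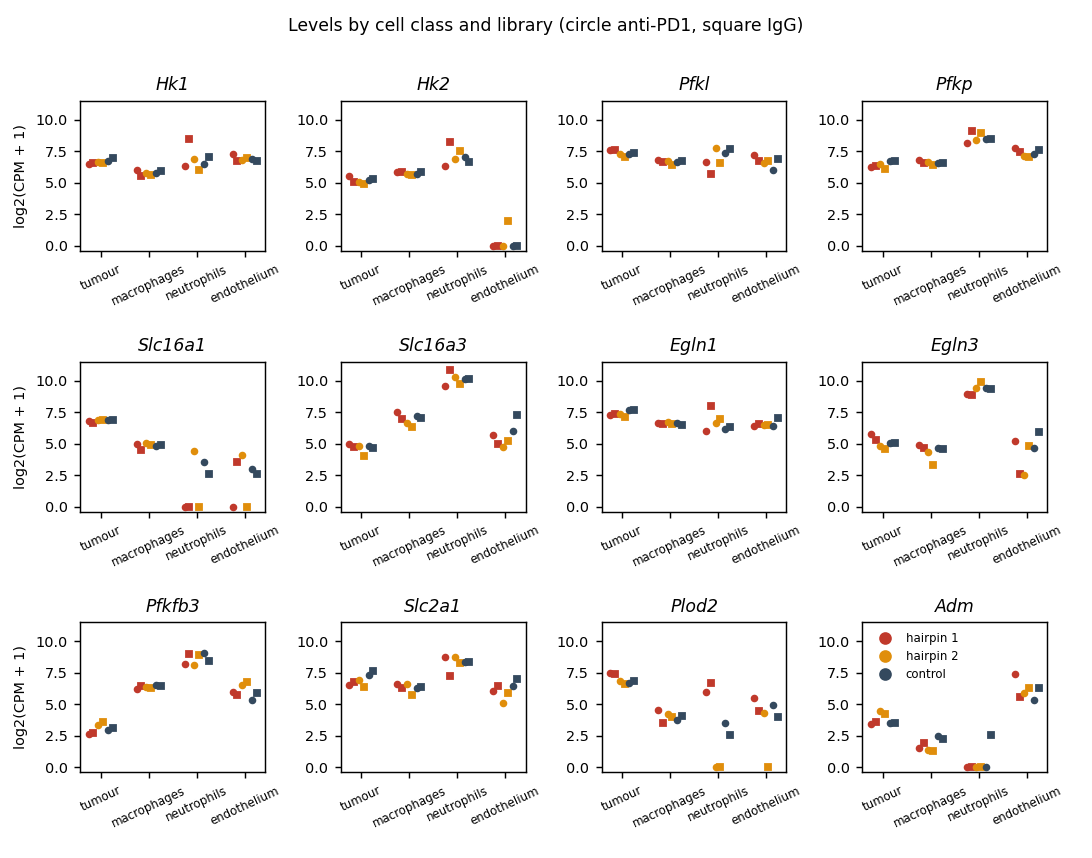
Level of 12 members, as log2 of CPM plus 1, in tumour cells, macrophages, neutrophils (stricter gate) and endothelium, for the 6 libraries by line, with circles for anti-PD1 and squares for IgG. Slc16a3, Egln3 and Pfkfb3 are highest in neutrophils (for Egln3 462 to 977 CPM against 23.4 to 53.6 CPM in tumour cells), Slc16a1 and Plod2 are highest in tumour cells, and Hk2 is near 0 in endothelium.

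Paralogs were divided among the classes as well. Hk1 was higher in tumour cells than in macrophages (0.88 ± 0.14, edgeR adjusted p = 9.66e-07) and not called against neutrophils of the wider gate (-0.09 ± 0.22) or endothelium (-0.23 ± 0.18). Hk2 was lower in tumour cells, at 29.1 to 46.7 CPM, than in macrophages, at 47.7 to 58.5 CPM (-0.58 ± 0.12, edgeR adjusted p = 4.56e-05), and neutrophils, at 81.8 to 308 CPM (-1.37 ± 0.22, edgeR adjusted p = 6.98e-06). In endothelium Hk2 had 1 UMI in all libraries together, so that the tumour level was 62.1 times as high with a 95% counting interval of 11.1 to 2452. Pfkl was higher in tumour cells than in macrophages (0.69 ± 0.12, edgeR adjusted p = 7.87e-06) and endothelium (0.69 ± 0.16, edgeR adjusted p = 0.000616), while Pfkp was lower in tumour cells than in neutrophils (-1.63 ± 0.19, edgeR adjusted p = 1.73e-08) and endothelium (-0.91 ± 0.17, edgeR adjusted p = 4.89e-05). Pfkfb3 was lowest in tumour cells, at 5.38 to 11 CPM, against 74.4 to 92.4 CPM in macrophages, 280.1 to 527 CPM in neutrophils and 40.5 to 111 CPM in endothelium, without overlap. Its log2 fold changes were -3.51 ± 0.16, -5.20 ± 0.23 and -3.20 ± 0.27 (edgeR adjusted p = 3.64e-18, 2.9e-18 and 1.12e-11).

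Oxygen sensors and secreted members differed too. Egln1 was higher in tumour cells than in macrophages (0.80 ± 0.12, edgeR adjusted p = 5.82e-07) and endothelium (0.91 ± 0.16, edgeR adjusted p = 2.1e-05), whereas Egln3 was much lower in tumour cells than in neutrophils, at 23.4 to 53.6 CPM against 462 to 977 CPM (-3.69 ± 0.26, edgeR adjusted p = 2.5e-13). Adm, a vessel-active peptide, was lower in tumour cells, at 9.71 to 21.0 CPM, than in endothelium, at 40.5 to 170 CPM (-2.49 ± 0.33, edgeR adjusted p = 1.36e-07). Neutrophils had 1 UMI of Adm in all libraries, for a tumour level 8.77 times as high with a 95% counting interval of 1.57 to 346. Bnip3 and Ero1l were higher in tumour cells than in endothelium by 4.00 ± 0.30 and 2.89 ± 0.21 (edgeR adjusted p = 1.13e-12 and 3.88e-13). Mxi1 was lower in tumour cells than in macrophages (-1.29 ± 0.15, edgeR adjusted p = 2.62e-09), the reverse of most hypoxia-induced members. Car9 had no UMI in neutrophils, which puts the tumour level at least 1.73-fold higher against a floor of 3 counts over the group in the main gate and at least 1.02-fold in the stricter one.

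In neutrophils and endothelium no member was called by knockdown pooled over the hairpins or by treatment. Single hairpin lines were not tested in these 2 classes, and the same pooled contrast called 0 members in tumour cells. Of the 26 members tested in each, edgeR called 0 in knockdown against control (0.0595% of 3361 genes in neutrophils and 0.0% of 5792 genes in endothelium) and 0 in anti-PD1 against IgG (0.774% and 0.0%). In neutrophils an unadjusted p under 0.05 held for 1 member and 116 genes for knockdown and 2 members and 686 genes for anti-PD1. In endothelium it held for 2 members and 321 genes for knockdown and 1 member and 138 genes for anti-PD1. DESeq2 called 0 members in all 4 contrasts. These neutrophil values are from the wider gate, which held tumour RNA. The stricter gate kept 48892 of its 136007 UMIs in hairpin 1 anti-PD1 and 49974 of 114327 in hairpin 2 anti-PD1. The part of tumour RNA in these contrasts was not tested. The cells were few, so moderate changes were not detectable at this depth. In the hairpin 1 IgG library the pericyte gene Rgs5 stood at 1135 CPM in the endothelial sum, against at most 67.5 CPM in the control libraries, and its part was not tested.

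Other genes of hypoxia and glucose metabolism were called in both directions. Of a list of 51, 45 were tested in tumour cells. In hairpin 1 edgeR called 11 higher and 13 lower, where 21.3% of all genes were higher and 21.4% lower, with a median of 0.00 over the list. In hairpin 2 it called 3 higher and 11 lower, where 8.12% of all genes were higher and 7.91% lower, with a median of -0.06. Angptl4, a secreted inhibitor of lipoprotein lipase, stood at 28.5 (anti-PD1) and 20.1 (IgG) CPM in hairpin 1, 58.9 (anti-PD1) and 68.5 (IgG) CPM in hairpin 2, and 141 (anti-PD1) and 117 (IgG) CPM in control tumour cells. It was lower in all hairpin libraries, most in hairpin 1 (-2.51 ± 0.15 in hairpin 1 and -1.07 ± 0.14 in hairpin 2; edgeR adjusted p = 5.7e-05 and 0.00551). Txnip, which curbs glucose uptake, stood at 70.9 (anti-PD1) and 63.1 (IgG) CPM in hairpin 1, 32.2 (anti-PD1) and 38.7 (IgG) CPM in hairpin 2, and 22.6 (anti-PD1) and 22.3 (IgG) CPM in control tumour cells. It was higher in all hairpin libraries (1.49 ± 0.10 in hairpin 1 and 0.60 ± 0.10 in hairpin 2; edgeR adjusted p = 7.63e-05 and 0.0107), as were Ldhb, the other lactate dehydrogenase subunit (0.89 ± 0.06 in hairpin 1 and 0.59 ± 0.06 in hairpin 2), and Bpgm, which diverts a glycolytic intermediate (0.87 ± 0.05 in hairpin 1 and 0.44 ± 0.05 in hairpin 2). Hilpda, a lipid-droplet gene, was called lower in both lines, with log2 fold changes of -0.71 ± 0.10 in hairpin 1 and -0.86 ± 0.10 in hairpin 2. So were Ak4, an adenylate kinase of mitochondria (-0.50 ± 0.08 in hairpin 1 and -0.96 ± 0.08 in hairpin 2), and the vessel growth factor Vegfa (-0.33 ± 0.08 in hairpin 1 and -0.43 ± 0.07 in hairpin 2). Bnip3l, the relative of Bnip3 (-0.44 ± 0.07 in hairpin 1 and -0.30 ± 0.07 in hairpin 2), and Gbe1, a glycogen-branching enzyme (-0.21 ± 0.07 in hairpin 1 and -0.39 ± 0.07 in hairpin 2), were also lower in both.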

How the data were processed

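Single-cell RNA-seq gave 1 library for each of 3 lines under anti-PD1 and IgG. Per the submitters' processing notes, the authors used Cell Ranger 7.0.1 and mm10, and the deposited matrices hold UMI counts, not normalized. Barcodes with at least 300 genes and at most 20.0% mitochondrial UMIs were kept (43843 of 43929), and Scrublet in scanpy 1.11.5 removed 583 doublets at an expected rate of 0.06. Cells were gated by marker UMIs, and those meeting several rules (662) were left out. The neutrophil and endothelium gates follow the markers in the text. UMIs were summed per library and class and tested with edgeR 4.0.16 (R 4.3.3; TMM scaling, filterByExpr, quasi-likelihood, Benjamini-Hochberg over all genes tested), with terms for line or genotype and treatment (2 or 3 residual degrees of freedom) or for library and class (24 sums). Log2 fold changes carry a standard error. Anti-PD1 and IgG libraries share a line per the labels, so a fit with line as a term was also made. Alternatives were DESeq2 1.42.0, no filter, a gate on at least 2 UMIs of Xist, other cuts for high cells, a macrophage gate of at least 10 UMIs and leaving out each library. The edgeR script was first tested on simulated data. Total UMIs per library bound the precision, and intervals cover counting error only. The members and lists were chosen with earlier results of these data known. Values per library were given for members called in both hairpin contrasts in the same direction, members called in a pooled contrast and the pairs Hk1 and Hk2, Pfkl and Pfkp, Slc16a1 and Slc16a3, and Egln1 and Egln3. Pfkfb3, Adm, Plod2, Hif1a, the macrophage genes, Angptl4 and Txnip were chosen after their values were seen.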

Additional observations from a re-analysis of the deposited data

Results flagged for a closer look

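In tumour cells edgeR's test of hairpin 2 minus hairpin 1 called 9 of 33 members, where 30.5% of 15596 genes were called. The members were thus not called more often than all genes. For 5 of the 9, the values against control had opposite signs in the 2 lines and at least 1 of them was called. The share of all genes meeting this rule was not computed, so the 5 are listed as a description only. Of these 5, Pfkfb3 differed by a log2 fold change of 0.93 and Adm by 0.94, both higher in hairpin 2. Egln3 differed by -0.80 and Plod2 by -0.70, both lower in hairpin 2. Hif1a differed by 0.25, a call lost without hairpin 1 IgG or hairpin 2 IgG. The calls of hairpin 2 minus hairpin 1 for Pfkfb3, Adm, Egln3 and Plod2 stood in each fit that left out 1 library. Slc39a9 was lower in hairpin 1, at 8.03 to 8.51 CPM, than in hairpin 2, at 11.1 to 12.2 CPM, and its part in these differences was not tested.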

How the results depend on the processing

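Of 1610 values for single genes under the alternatives, 1405 kept their call, 205 lost it and 0 reversed. These values pool calls between cell classes with calls between lines, so the total does not describe the line contrasts alone. Without 1 library, members called ranged from 12 to 23 in hairpin 1 tumour cells, 5 to 24 in hairpin 2, 7 to 12 in hairpin 2 minus hairpin 1, 11 to 23 in the hairpin 2 tumour cells below the high cut, 0 to 4 in hairpin 1 macrophages and 0 to 13 in hairpin 2 macrophages. The ratio of high macrophages, 0.930, ranged from 0.821 to 1.04 and was 1.01 with the 5% cut and 0.819 with the 20% cut. DESeq2 called 13 members in pooled tumour knockdown in place of 0, and 0 in hairpin 1 macrophages in place of 1. With no filter on low counts, 1 member each was called in tumour, macrophage and endothelium knockdown and in macrophage anti-PD1 in place of 0, 5 in hairpin 1 macrophages in place of 1 and 14 in hairpin 2 macrophages in place of 4. In Xist-gated cells hairpin 2 had 13 members called in place of 21, and 4 in place of 20 below the high cut. The part of the glycolysis difference in the other cells, 74.6%, was 54.5% with the 20% cut and 59.5% in Xist-gated cells. The shares of all genes called are not given, here or above, for the fits that left out 1 library or used no filter. Whether the member counts moved with all genes in those fits therefore cannot be read from them. The cause of these shifts was not tested. With line as a replicate block, the anti-PD1 contrast called 0 members in each of the 4 classes, as without it. The interaction could not be fitted without a control library. Each line is 2 libraries, and neutrophils and endothelium hold few cells, which limits what depth can show.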
